A study of Homo sapiens with 9 samples.

Results

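TRA2A and TRA2B are paralogous genes for splicing activators, related to the transformer-2 protein of Drosophila. They were chosen by symbol, as every assembled isoform whose nearest reference gene is TRA2A or TRA2B, and make up 2 of the 22266 loci in the gene table. TRA2A had 10 assembled isoforms and TRA2B had 13, of which 9 and 12 had signal in at least 1 library, and no isoform of another symbol lay in either locus. RNA sequencing was done on cytoplasmic poly(A)+ RNA. The cells were the b-39 subline of HEK293 Flp-In T-Rex, an established line from human embryonic kidney, which carries a beta-globin reporter with a premature stop codon at its Flp-In site. The control library came from cells given an siRNA against EGFP. The other libraries came from cells labelled as depleted of XRN1, of SMG6 and XRN1 together, or of UPF1 and XRN1 together, so no library has SMG6 or UPF1 depleted alone. Each of the 4 conditions had 1 RNA-seq library. No difference therefore has a replicate check, and no p-value is given. The series' 4 libraries of RNA 5' ends and 1 CAGE library were not analysed here.

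TRA2 proteins carry an RNA recognition motif between domains rich in serine and arginine, and bind purine-rich stretches with GAA or AGAA in pre-mRNA, where they favour use of the bound exon. Both genes hold a highly conserved alternative exon of the kind called a poison exon, which interrupts the reading frame with an early stop codon. TRA2 proteins are known to promote inclusion of such an exon in their own transcripts. An mRNA with an early stop codon upstream of exon junctions is a typical substrate of nonsense-mediated decay (NMD). In that pathway the helicase UPF1 marks the mRNA, the endonuclease SMG6 cuts it near the stop codon, and the exonuclease XRN1 degrades the 3' fragment and decapped RNA from the 5' end.

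The transcript structures used here are those of GENCODE release 29 on GRCh38, found by the Ensembl identifier that the deposited tables give for each isoform. TRA2A lies on the minus strand at chr7:23504780-23532041 and TRA2B on the minus strand at chr3:185915906-185938136. TRA2A-201, with 8 exons, reads through 282 codons, and TRA2B-205, with 9 exons, reads through 288. Relative to these, TRA2A-211 adds an exon of 301 bases at chr7:23522132-23522432, and TRA2B-206 adds an exon of 276 bases at chr3:185931577-185931852. Both lie between exon 1, which holds the start codon, and the next coding exon. In TRA2B-206, annotated as an NMD transcript, the frame from the start codon ends after 38 codons at a TGA in the added exon, 1015 bases before the last exon junction. TRA2A-203, the NMD transcript annotated for TRA2A, uses only the first 79 bases of the added exon and reaches a TAG after 63 codons in exon 3. TRA2A-211 is annotated as protein coding from a start codon in exon 4. Read from the start codon that TRA2A-201 uses, its frame ends after 59 codons at a TAG in the added exon, 959 bases before the last junction. TRA2A-202 has a further exon of 90 bases before the added one, and the same frame ends there after 12 codons.

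The short reading frames of TRA2B-206 and TRA2A-203, both annotated as NMD transcripts, are shown, with part of that of TRA2A-211. The frames are given 5′ to 3′ from the GENCODE transcripts, with the start and the stop codon in capitals. For TRA2A-211 the 30 bases that end with the stop in the added exon are shown, with the stop codon in capitals.
TRA2B-206: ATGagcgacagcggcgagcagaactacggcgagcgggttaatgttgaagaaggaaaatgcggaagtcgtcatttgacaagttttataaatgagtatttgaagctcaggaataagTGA
TRA2A-203: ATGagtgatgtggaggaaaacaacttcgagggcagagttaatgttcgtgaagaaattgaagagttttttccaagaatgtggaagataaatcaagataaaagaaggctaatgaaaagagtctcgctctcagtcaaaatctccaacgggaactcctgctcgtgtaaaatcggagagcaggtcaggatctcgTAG
TRA2A-211: aaaaaattgaacagaagattggtcagaTAG

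The added exons of both genes open with the same 9 bases, gttaatgtt, and a global alignment of the whole exons gave 60.4% identity over 333 columns, gaps included. Both are rich in adenine, at 44.5% of bases in TRA2A and 43.8% in TRA2B, while the other exons of TRA2A-211 and TRA2B-206 ranged from 16.2% to 34.5%. The motif AGAA, a core of TRA2 binding sequences, was counted on the transcript strand with overlaps allowed. It occurred 13 times in the added exon of TRA2A and 12 times in that of TRA2B, and its reverse complement TTCT occurred 0 times in either. No other exon of TRA2A-211 or TRA2B-206 held more than 5 matches to AGAA. Among the 10598 annotated exons of 291 to 311 bases, 77.6% held AGAA at least once, 73.2% held TTCT, and 0.132% held AGAA at least 13 times. Among the 11814 exons of 266 to 286 bases, 75% held AGAA, 70.3% held TTCT, and 0.102% held AGAA at least 12 times. These sets include the exons themselves and were matched by length only, not by base composition. How far the adenine content accounts for the AGAA counts was not tested. A match describes the letters and is not a measured binding site.

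**Figure D1:**
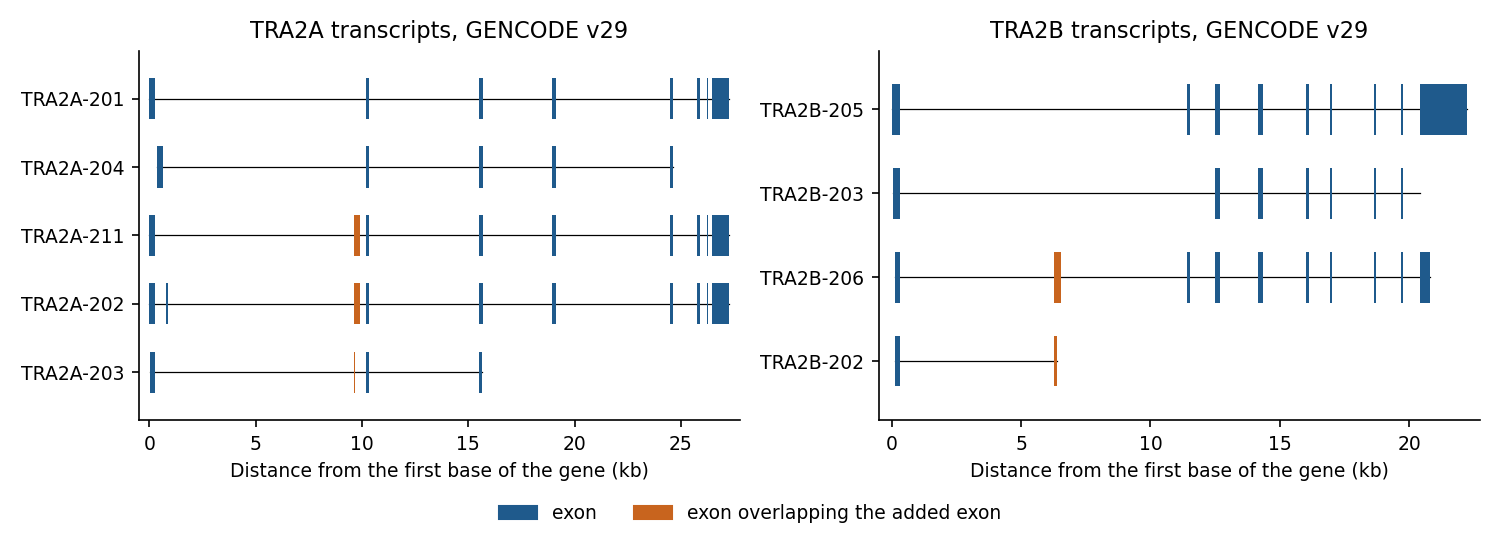
Exon models of TRA2A and TRA2B transcripts in GENCODE release 29. The x axis is the distance in kb from the first base of the gene, boxes are exons drawn to scale, and orange boxes overlap the added exon, which has 301 bases in TRA2A and 276 in TRA2B and lies between exon 1 and the next coding exon.

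All directions given here rest on the labels. XRN1 mRNA stood at 7.80 FPKM in the control and 7.31, 10.1 and 6.50 in XRN1, SMG6/XRN1 and UPF1/XRN1. The library labelled SMG6/XRN1 had 7.66 FPKM of SMG6, beside 4.77 in the control. The library labelled UPF1/XRN1 had 8.59 FPKM of UPF1, beside 6.71 in the control and 11.6 in XRN1. The targeted mRNAs therefore do not check the labels, and XRN1, SMG6/XRN1 and UPF1/XRN1 stand here for the libraries labelled so. HBB, the gene of the reporter, was measured at 139 FPKM in the control and at 257, 355 and 747 in the others. The libraries held between 31475730 and 35982593 estimated reads. Of the cell line's listed markers, VIM was between 360 and 380 FPKM and NEFL between 31.3 and 57.3, with NEFM and PAX2 under 1 FPKM in all 4 libraries. NEFL was lowest in UPF1/XRN1. Of the 6 measured markers of other cell types, PTPRC, CD3E and ALB were under 1 FPKM in every library. EPCAM was between 98.0 and 126, HBA1 between 3.83 and 6.21 and HBA2 between 1.08 and 2.47, each lowest in UPF1/XRN1. Their part in the TRA2 results was not tested.

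In both genes the share of reads in isoforms that skip the added exon was smaller at each step from the control through XRN1 and SMG6/XRN1 to UPF1/XRN1, and the share in isoforms that contain it was larger. Shares are of the estimated reads of the locus, and the ranges in parentheses are exact Clopper-Pearson 95% intervals that cover counting error only. Isoforms that skip the exon held 84.2% (83.1 to 85.2) of TRA2A reads in the control, 69.4% (68.1 to 70.6) in XRN1, then 42.0% (40.9 to 43.1) in SMG6/XRN1 and 22.9% (22.1 to 23.6) in UPF1/XRN1. For TRA2B the shares were 83.5% (82.7 to 84.2), 67.4% (66.6 to 68.3), 42.0% (41.3 to 42.8) and 23.8% (23.3 to 24.2). In both genes all 4 libraries lay apart from each other by more than counting error. Between the genes, the intervals of a library overlapped in all 4. These skipping shares do not count isoforms whose structure is not given, which held 51.4% of TRA2A and 4.69% of TRA2B reads in UPF1/XRN1. In bulk RNA, fewer cells that skip the exon and less of that RNA in each cell cannot be told apart.

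Isoforms that contain all or part of the exon made up 12.9% (12.2 to 13.6) of TRA2B reads in the control, 28.5% (27.7 to 29.3) in XRN1, then 54.6% (53.8 to 55.4) in SMG6/XRN1 and 71.5% (71.0 to 72.0) in UPF1/XRN1. In TRA2A they made up 9.86% (9.04 to 10.7), 14.7% (13.8 to 15.7), 22.2% (21.2 to 23.1) and 25.6% (24.8 to 26.4). The rest of TRA2A lay mostly in 1 isoform of class j, which shares a splice junction with TRA2A-202 but differs from it. The files used here do not give its exons, so whether it holds the added exon is not known. It held 5.82% (5.18 to 6.51) of TRA2A reads in the control and 51.4% (50.5 to 52.4) in UPF1/XRN1. The 4 class j isoforms of TRA2B, nearest to TRA2B-206, held between 3.36% and 4.69% in each library.

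Of reads in isoforms known to contain or skip the exon, those that contain it were 13.4% in the control and 75.1% in UPF1/XRN1 for TRA2B, and 10.5% and 52.8% for TRA2A. The class j isoforms decide how far the genes differ here. If they are all counted as containing the exon, a count chosen after seeing the data, the shares in TRA2A were 15.7%, 30.5%, 57.9% and 77.1% from the control to UPF1/XRN1. Those in TRA2B were then 16.5%, 32.6%, 58.0% and 76.2%. If they are counted instead as skipping it, the containing share is close to that of the whole locus given above. In UPF1/XRN1 that share was 25.6% for TRA2A and 71.5% for TRA2B. Which count holds is not known.

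**Figure D2:**
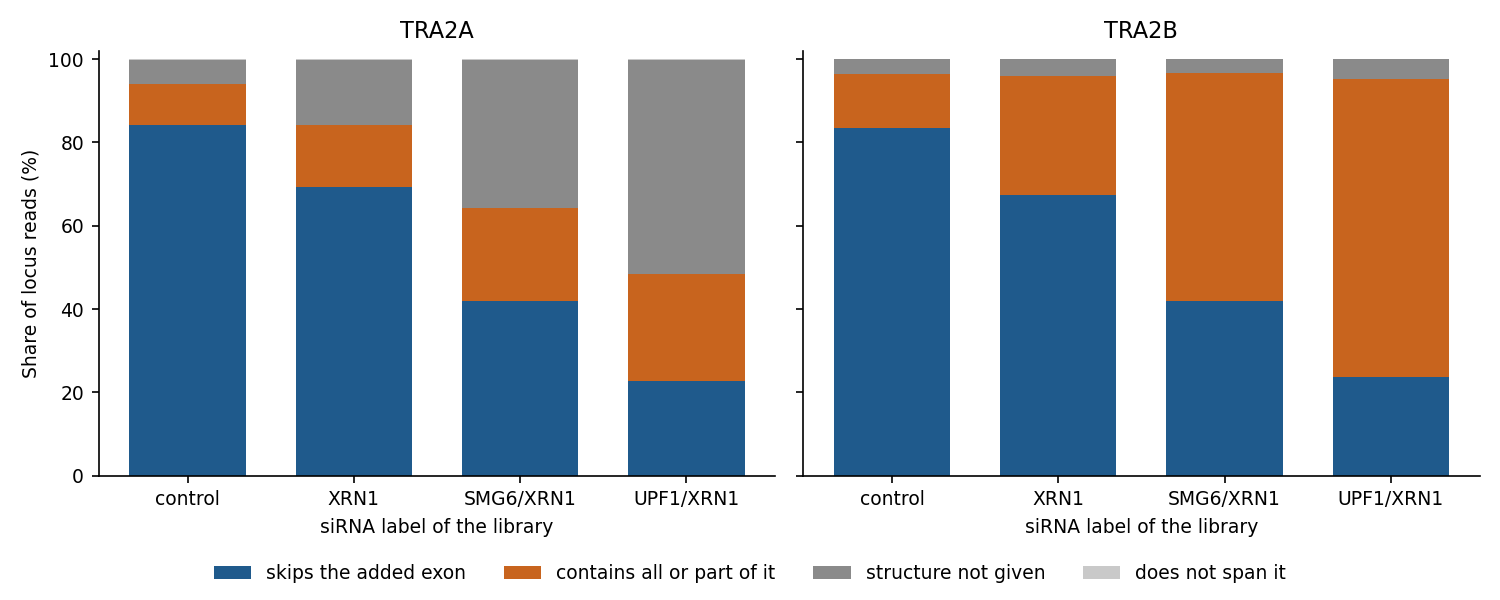
Share of the estimated reads of each locus (y axis, %) by whether an isoform skips the added exon, contains all or part of it, has no given structure (class j) or does not span it, in each of the 4 libraries (x axis). The skipping share goes from 84.2% to 22.9% in TRA2A and from 83.5% to 23.8% in TRA2B, and the class j share in UPF1/XRN1 is 51.4% in TRA2A and 4.69% in TRA2B.

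TRA2B-206, the isoform with the added exon and all later coding exons, carried most of the TRA2B change. Its spike-in normalised signal was 4261 in the control, 13368 in XRN1, then 35858 in SMG6/XRN1 and 68872 in UPF1/XRN1. The signal was higher at every step in that order. Its reads in XRN1 were 3.14 times the control (2.93 to 3.36), those in SMG6/XRN1 2.68 times XRN1 (2.58 to 2.79), and those in UPF1/XRN1 5.15 times XRN1 (4.96 to 5.35). Ranges beside ratios of reads are exact conditional binomial 95% intervals for counting error only, and ratios are on the deposited spike-in scale. UPF1/XRN1 held 16.2 times the control (15.2 to 17.2) and 1.92 times SMG6/XRN1 (1.87 to 1.97). As a share of the locus, TRA2B-206 went from 12.4% in the control to 64.6% in UPF1/XRN1. Of 112184 isoforms in 10756 loci with at least 100 estimated reads in every library, 86 (0.0767%) gained as many percentage points between these libraries. At most 1 isoform of a locus can gain so many, and this set was not filtered on signal. The share of loci with such a gain is therefore larger than that percentage.

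TRA2B-205, which encodes the full-length protein, had signals of 27740 in the control, 31325 in XRN1, then 27684 in SMG6/XRN1 and 25215 in UPF1/XRN1. All 4 values lay within 2-fold of each other, and UPF1/XRN1 was the lowest. Its reads in UPF1/XRN1 were 0.909 of the control (0.879 to 0.940) and 0.805 of XRN1 (0.779 to 0.832). TRA2B-205 was the leading isoform of the locus in the control and in XRN1, and TRA2B-206 in both co-depletions. The share of TRA2B-205 went from 80.8% to 23.7% while its own signal stayed within 2-fold and that of TRA2B-206 was 16.2 times as high.

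TRA2B-202, a short model of 288 bases that ends inside the added exon, was at a listed 0 both in the control and in XRN1. It stood at 1150 in SMG6/XRN1 and 6773 in UPF1/XRN1, and in the latter it held 6.36% of the locus (6.08 to 6.65). The UPF1/XRN1 reads were 5.90 times those of SMG6/XRN1 (5.19 to 6.73). A listed 0 can be a failed estimate, and no fold over the control is given.

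TRA2A-201, which encodes the full-length TRA2A protein, changed past 2-fold, unlike TRA2B-205. Its signal was 13039 in the control, 11375 in XRN1, then 9943 in SMG6/XRN1 and 4134 in UPF1/XRN1. UPF1/XRN1 was low against the other libraries. Reads there were 0.363 of XRN1 (0.339 to 0.390), 0.317 of the control (0.296 to 0.339) and 0.416 of SMG6/XRN1 (0.387 to 0.447). In SMG6/XRN1 they were 0.874 of XRN1 (0.827 to 0.924). The UPF1/XRN1 ratios to the control of TRA2A-201 and TRA2B-205 thus had intervals that did not overlap, for counting error alone. Summed over isoforms known to skip the added exon, these ratios were 0.604 (0.575 to 0.634) for TRA2A and 0.883 (0.855 to 0.913) for TRA2B. Both sums were thus within 2-fold of the control. In TRA2A the sum includes TRA2A-204, described below. TRA2A-201 held 68.3% of the locus in the control and 9.74% in UPF1/XRN1. Of the 112184 unfiltered isoforms in 10756 loci, 69 (0.0615%) lost as many points, and again at most 1 isoform of a locus can.

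The class j isoform nearest to TRA2A-202 had signals of 1109 in the control, 3379 in XRN1, then 11519 in SMG6/XRN1 and 21836 in UPF1/XRN1. It was higher at every step in that order, as TRA2B-206 was. Its reads were 3.04 times the control in XRN1 (2.66 to 3.49), and 3.41 times (3.16 to 3.69) and 6.47 times (6.01 to 6.96) XRN1 in SMG6/XRN1 and UPF1/XRN1. It led the locus in both co-depletions, whereas TRA2A-201 led it in the control and in XRN1. The isoform matching TRA2A-202 itself, named after its values were seen, differed less between libraries. Its signal was 439 in the control, 604 in XRN1, then 763 in SMG6/XRN1 and 889 in UPF1/XRN1.

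TRA2A-211, with the whole added exon, had signals of 1361 in the control, 2499 in XRN1, then 6143 in SMG6/XRN1 and 9603 in UPF1/XRN1. UPF1/XRN1 reads were 3.84 times XRN1 (3.52 to 4.20) and 7.06 times the control (6.31 to 7.91), so its ratio to the control was below that of TRA2B-206. TRA2A-203, annotated for NMD and also named after its values were seen, was rare. The control had a signal of 14.2, which is 4 reads, and XRN1 a listed 0. SMG6/XRN1 had 156 and UPF1/XRN1 had 280. The remaining major isoform, TRA2A-204, is annotated as a processed transcript with another first exon, and it skips the added exon. Its signals were 3022 in the control, 3588 in XRN1, then 3643 in SMG6/XRN1 and 5568 in UPF1/XRN1, all within 2-fold of each other. In UPF1/XRN1 it held 13.1% of TRA2A reads and TRA2A-201 held 9.74%, by reads that are not scaled to isoform length.

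**Figure D3:**
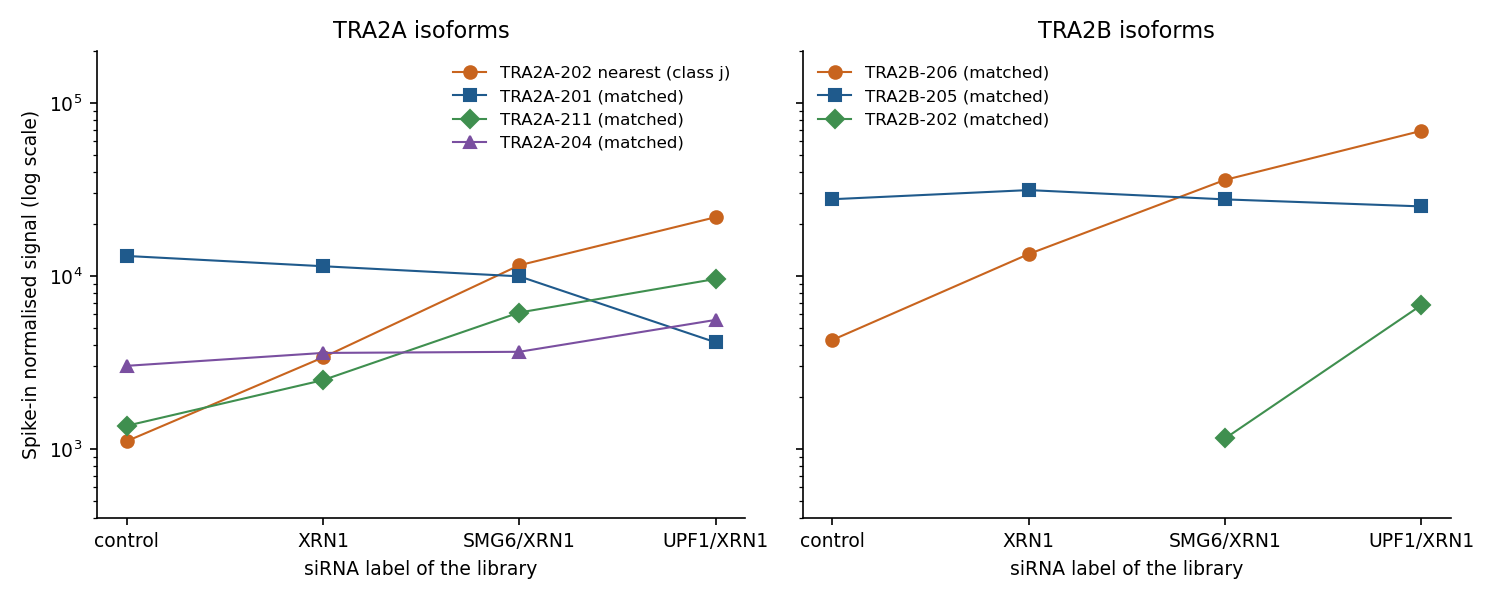
Spike-in normalised signal (y axis, log scale) of the isoforms with at least 5% of their locus in some library, by library (x axis); lines only join points of the same isoform, and TRA2B-202 has no point where it is listed at 0. TRA2B-206 goes from 4261 to 68872 while TRA2B-205 stays between 25215 and 31325, and TRA2A-201 is lowest in UPF1/XRN1 at 4134.

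The other 6 isoforms of TRA2A and 10 of TRA2B each held at most 2.80% and 3.94% of their locus in every library. A filter on mean signal left 8 TRA2A and 9 TRA2B isoforms, and a change was called at 2-fold on log2(signal + 1). From the control to XRN1, 1 TRA2A isoform was higher and 1 lower, and 2 TRA2B isoforms were higher and 0 lower. Over all 61408 isoforms passing the filter, 24.3% were higher and 12.6% lower. From XRN1 to SMG6/XRN1, 3 isoforms of each gene were higher and 0 lower, against 25.1% higher and 9.3% lower in the background. From XRN1 to UPF1/XRN1, 3 TRA2A isoforms were higher and 1 lower, and 6 TRA2B isoforms were higher and 1 lower, against 27.1% higher and 11.5% lower. Over the control, SMG6/XRN1 had 3 TRA2A and 5 TRA2B isoforms higher and 0 lower, against 35.2% higher and 8.52% lower. UPF1/XRN1 over the control had 4 and 7 higher and 1 lower in each gene, against 35.5% and 10.3%. Between the co-depletions, UPF1/XRN1 over SMG6/XRN1 had 0 TRA2A and 5 TRA2B isoforms higher and 1 of each lower, against 12.4% and 13%. These counts describe the isoforms that passed and are not read as a difference from the background, since 3 of them passed mainly through the co-depletions. They are TRA2B-202 and TRA2A-203, described above, and TRA2B-210, named after its values were seen, with signals of 11.5, 15.2, 31.4 and 113 from the control to UPF1/XRN1. TRA2B-210 counted as higher in SMG6/XRN1 than in XRN1 on 7 reads against 4, a ratio with an interval of 0.467 to 8.56. The TRA2A isoform lower in XRN1 than in the control was TRA2A-203, on 0 reads against 4. Among isoforms that passed the filter, 3583 match an annotated NMD transcript and 25734 a protein-coding one. Of these, 44.7% and 17.7% were 2-fold higher in UPF1/XRN1 than in XRN1. TRA2B-206 was among the former, as was TRA2A-203, which rose from a listed 0. The mean signal used by the filter includes UPF1/XRN1, which favours isoforms high there. The authors' own NMD mark was on 3 of the 8 TRA2A and 5 of the 9 TRA2B isoforms that passed the filter, and on 27.9% of all that passed. That mark is set from these same values, exactly where both co-depletions exceed 2 times the control, and is no separate evidence.

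Summed over isoforms, both loci were higher in the depleted libraries than in the control. By locus FPKM, a level scaled to both length and library size, TRA2A stood at 92.9 in the control, 104 in XRN1, then 139 in SMG6/XRN1 and 186 in UPF1/XRN1. TRA2B stood at 78.5, 105, 157 and 317 FPKM in the same order. By FPKM, TRA2B was below TRA2A in the control, level with it in XRN1 and above it in both co-depletions. By estimated reads, which are not scaled to length, TRA2B was above TRA2A in every library, with 8903 against 4951 in the control. With 1 library each, the spread around these levels is not known, and the XRN1 level of TRA2A was only 1.12 times its control.

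From the control to XRN1, the log2 changes of FPKM + 1 were 0.16 for TRA2A and 0.42 for TRA2B, beside a median of 0.14 over the 12164 genes with a mean of at least 1 FPKM. In that comparison 4.11% of genes were 2-fold higher and 0.37% lower, and neither gene was among them. TRA2A thus lay near the middle of all genes. From XRN1 to SMG6/XRN1 the changes were 0.42 and 0.57, where the median gene had 0.12, 1.36% of genes were 2-fold higher and 0.173% lower. From XRN1 to UPF1/XRN1 they were 0.83 and 1.58, where the median was 0.02, 2.52% were 2-fold higher and 0.534% lower. TRA2B passed 2-fold there, ranking 57 of 12164 from the highest, and TRA2A did not, ranking 542.

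The size of the differences, and in 1 comparison their order, depends on the scale. From XRN1 to SMG6/XRN1 TRA2B had the larger FPKM change, but TRA2A the larger log2 ratio of scaled reads, 0.58 beside 0.53. The intervals of these ratios, 1.45 to 1.55 and 1.41 to 1.47 on the linear scale, overlapped. For UPF1/XRN1 over XRN1 the FPKM ratio of TRA2B was 3.01 and its ratio of scaled reads 2.24 (2.20 to 2.29), while for TRA2A they were 1.79 and 1.97 (1.91 to 2.03). FPKM takes account of isoform length and reads do not, and TRA2B-206 has 1697 annotated bases against 2952 for TRA2B-205. These measures also differ in their scaling between libraries, and the source of the gap was not tested. Set directly against SMG6/XRN1, UPF1/XRN1 had a log2 FPKM change of 1.01 for TRA2B and 0.42 for TRA2A, where 0.312% of genes were 2-fold higher and 0.312% lower. By scaled reads the TRA2B ratio was 1.56 (1.53 to 1.59), which is under 2-fold. Over the control, SMG6/XRN1 had changes of 0.58 for TRA2A and 0.99 for TRA2B, with 9.3% of genes 2-fold higher and 0.263% lower. UPF1/XRN1 over the control had 0.996 for TRA2A, just under the 2-fold threshold of 1, although its ratio of scaled reads was 2.22 (2.15 to 2.30), past 2-fold. It had an FPKM ratio of 4.04 for TRA2B, with 10.2% of genes 2-fold higher and 0.575% lower. These comparisons share libraries and are not independent of each other.

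**Figure D4:**
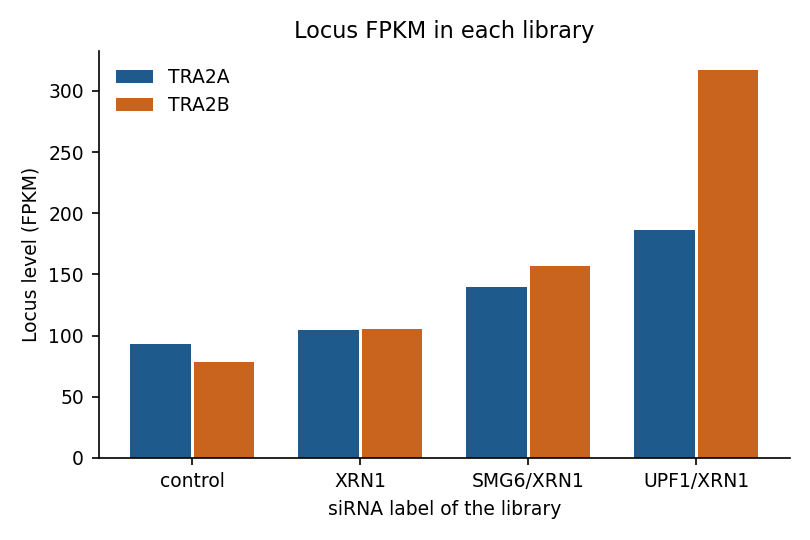
Locus level in FPKM (y axis, starting at 0) of TRA2A and TRA2B in each of the 4 libraries (x axis); each bar is 1 library, with no error bar. TRA2B goes from 78.5 to 317 and TRA2A from 92.9 to 186.

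The SR proteins, the wider family of serine/arginine-rich splicing factors to which TRA2 proteins are related, had members with changes above and below that of TRA2B. From the control to XRN1, 1 of 12 was 2-fold higher and 0 lower, beside 4.11% and 0.37% of all genes, with a median log2 change of 0.22 beside 0.14 over all genes. From XRN1 to SMG6/XRN1, 0 of 12 passed 2-fold, beside 1.36% of all genes higher, and the median was 0.36 beside 0.12. The largest values there were 0.83 for SRSF10 and 0.72 for SRSF5, both above the 0.57 of TRA2B. From XRN1 to UPF1/XRN1, 1 of 12 was higher and 0 lower, beside 2.52% higher and 0.534% lower, and the median was 0.31 beside 0.02. SRSF10, a factor close in sequence to TRA2 proteins, was that gene, with 114 FPKM in XRN1 and 278 in UPF1/XRN1 (1.27). SRSF6, the gene past 2-fold in XRN1, had 85.5 FPKM in the control, 177 in XRN1, then 264 in SMG6/XRN1 and 352 in UPF1/XRN1. The change from XRN1 to UPF1/XRN1 was 0.98. SRSF4 had -0.21 and SRSF9 -0.12 in that comparison, so the family did not share 1 direction. TRA2B, with 1.58, had a larger change there than each of the 12. Over the control, SRSF2, SRSF6 and SRSF10 passed 2-fold in both co-depletions, 3 of 12 beside 9.3% of all genes for SMG6/XRN1 and 10.2% for UPF1/XRN1. The highest of them was SRSF6, with 1.62 and 2.03.

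Of the kinases and the phosphatase that set the phosphorylation of SR and TRA2 proteins, 10 of 11 listed genes were measured above 1 FPKM. CLK4 was the 1 gene of 10 that was 2-fold higher in XRN1 than in the control, beside 4.11% of all genes, with 8.71 and 21.3 FPKM (1.20). The next largest change was that of CLK3 (0.77), and the lowest were PPP1CA (-0.21) and PPP1CB (-0.12). From XRN1 to SMG6/XRN1 and from XRN1 to UPF1/XRN1, 0 of 10 passed 2-fold, beside 1.36% and 2.52% of all genes higher, and the medians of 0.11 and 0.05 lay near those of all genes, 0.12 and 0.02. CLK4 (0.62) and CLK2 (0.56) had the largest values in SMG6/XRN1, and CLK4 (0.52) and CLK2 (0.45) in UPF1/XRN1. PPP1CC, a catalytic subunit of protein phosphatase 1, had the lowest in both, -0.18 and -0.45. Over the control, 2 of 10 were 2-fold higher in each co-depletion, beside 9.3% and 10.2% of all genes. CLK1 had 1.23 in SMG6/XRN1 and 1.14 in UPF1/XRN1, and CLK4 had 1.82 and 1.72.

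**Figure D5:**
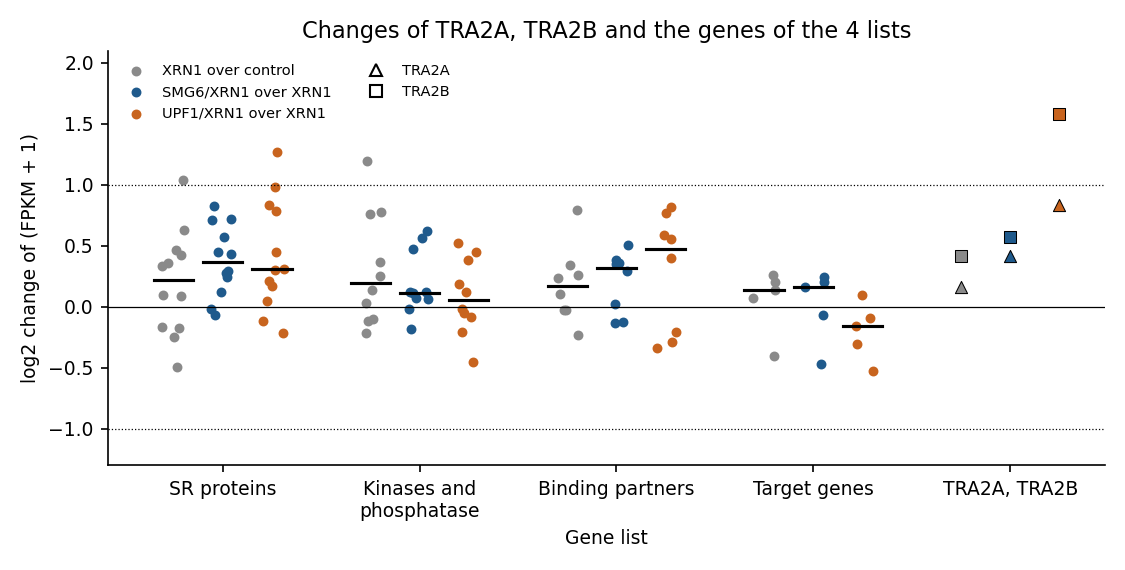
Log2 change of FPKM + 1 (y axis) for the measured genes of 4 lists and for TRA2A (triangles) and TRA2B (squares) in 3 comparisons (colours); points are genes, spread sideways for visibility, black bars are list medians and dotted lines mark 2-fold. The TRA2B value of 1.58 from XRN1 to UPF1/XRN1 lies above every gene of the lists in that comparison, and the TRA2A value is 0.83.

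Genes with the pattern most like each member were found as those with the smallest Euclidean distance over the 3 log2 differences from the control, among the 7835 named loci whose mean reached 5 FPKM and whose level was above 0 throughout. For TRA2A they were UFD1L, a cofactor of the ubiquitin-dependent segregase, MRPL49 of the mitochondrial ribosome and the apoptosis effector BAK1, at distances of 0.05, 0.06 and 0.06. UFD1L had 71.2, 78.5, 103 and 144 FPKM from the control to UPF1/XRN1. For TRA2B they were C10orf35, the lipase gene ABHD4 and the uridine phosphorylase gene UPP1, at 0.23, 0.24 and 0.29. UPP1 had 3.28, 5.19, 8.43 and 13.7 FPKM in the same order. TRA2A and TRA2B were 1.11 apart, and TRA2A ranked 660 of 7835 among the loci nearest to TRA2B, and TRA2B ranked 4366 among those nearest to TRA2A.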

How the data were processed

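The members, gene lists and alternatives were chosen with earlier results of these data known. Gene values are locus FPKM, deposited by the authors. Isoform values are a spike-in normalised signal that the authors deposited, with a factor not stated in the sources used here. Identifiers, class codes and marks make up the remaining deposited columns. The submitters' processing notes name CASAVA 1.8.2, Bowtie 0.12.7, TopHat2 2.0.6, Cufflinks 2.0.2 and hg19, without roles or order. Strand handling in counting is likewise not stated.

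Samples were grouped by title, with 1 library per group, and no test was run. Low locus sums of the signal fell on multiples of 1 step per library (3.85, 4.05, 4.25 and 3.72, in the order of the report), and of loci with up to 20 reads 84.5% to 86.6% came out whole within 0.01. Signal divided by that step gave estimated reads, split among isoforms as in the deposited values. Size of change is log2((a + 1)/(b + 1)), which understates change of low values. Genes needed a mean of 1 FPKM. Isoforms needed a mean signal of 30.9, the median of nonzero means, so 61408 of 122816 were kept. Isoforms were given in full at 5% of their locus. The text names up to the 2 highest and 2 lowest changes of a list, though not in every comparison, members past 2-fold, and the 3 nearest genes. The step recovery and the calls were tested on simulated whole reads. Such data cannot check the loci that did not come out whole, and calls on few reads were not checked. Isoforms of class = took their exons from GENCODE 29 (GRCh38) by identifier, and the deposited tables hold no coordinates. For 9 of these 18 member isoforms the version was the same as in the file, and the others had later versions. Scripts used Python 3.11.15, pandas 2.3.3, scipy 1.17.1 and Biopython 1.88.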

Additional observations from a re-analysis of the deposited data

How the results depend on the processing

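Of 72 alternatives, 50 moved a value by less than counting error in the same direction, or left a count unchanged or within 1.5 times. Counts were compared as the total of higher and lower, without regard to direction. No paired analysis was possible because each group has 1 library, and no library could be left out. Centred on the median gene, the log2 changes of XRN1 over control were 0.0225 (TRA2A) and 0.28 (TRA2B), and of SMG6/XRN1 over XRN1 0.30 and 0.45. Summed isoform signal gave TRA2B 0.47 for XRN1 over control, TRA2A 0.58 and TRA2B 0.53 for SMG6/XRN1 over XRN1, and 0.98 and 1.17 for UPF1/XRN1 over XRN1. Scaled to each library's total, the signal gave 0.0376 and 0.33 for XRN1 over control, 0.44 and 0.38 for SMG6/XRN1 over XRN1, and 0.97 and 1.16 for UPF1/XRN1 over XRN1. Under both scalings of that signal TRA2A was above TRA2B in SMG6/XRN1 over XRN1, the reverse of FPKM. For UPF1/XRN1 over XRN1, a pseudocount of 5 gave TRA2B 1.55. Alternatives were run for XRN1 over control and for each co-depletion over XRN1. Among these the 2-fold call was made for TRA2B in UPF1/XRN1 over XRN1, and it was the same under all 5 alternatives. With that scaling, 1 isoform of each gene passed 2-fold in XRN1 over control, and without a filter 5 TRA2B isoforms did in SMG6/XRN1 over XRN1. From XRN1 to UPF1/XRN1 the share of the leading matched isoform changed by -43.0 points (TRA2A-201) and 36.5 points (TRA2B-206). Summing all matched isoforms gave -35.8 for TRA2A and turned TRA2B to -0.64, since the sum holds both TRA2B-205 and TRA2B-206. With class j isoforms counted as containing the added exon, an alternative chosen after seeing the data, the gain from control to UPF1/XRN1 was 61.4 points in place of 42.3 for TRA2A and 59.8 in place of 61.7 for TRA2B. The opposite count, with class j isoforms as skipping it, was not among the alternatives. Depth gave the TRA2 loci between 4951 and 28644 reads per library, so the limit here is the single library and the split of reads among isoforms.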

Other observations

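Proteins known to bind TRA2 proteins differed among themselves. Of 9 listed, 8 were in the gene table, and 0 passed 2-fold from the control to XRN1, from XRN1 to SMG6/XRN1 or from XRN1 to UPF1/XRN1, beside 4.11%, 1.36% and 2.52% of all genes higher. From the control to UPF1/XRN1, 1 of 8 passed, SAFB2 (1.06), beside 10.2%. For UPF1/XRN1 over XRN1 the median was 0.48 beside 0.02 over all genes, with SAFB2 (0.82, from 26.2 to 47.1 FPKM) and the X-linked RNA-binding protein gene RBMX (0.77, from 250.3 to 428 FPKM) highest. PNN (-0.34) and KHDRBS1 (-0.29), which encodes SAM68, were lowest. From XRN1 to SMG6/XRN1 the median was 0.32, with SAFB2 (0.51) and ACIN1 (0.38) highest.

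Genes with exons reported to be activated by TRA2 proteins had 5 of 6 listed members in the gene table, and 0 passed 2-fold in any of these 4 comparisons. Over all genes 4.11%, 1.36%, 2.52% and 10.2% were higher and 0.37%, 0.173%, 0.534% and 0.575% lower, in the same order. A count of 0 in 5 genes lies near these shares. From XRN1 to UPF1/XRN1 the median was -0.16 beside 0.02. NASP, a histone chaperone gene, had 236 and 254 FPKM in these libraries (0.10), SMN2 had -0.09, and HIPK3 (-0.53) and MAPT (-0.30) were lowest at 3.85 and 2.15 FPKM in UPF1/XRN1. SMN1 and SMN2 are near-identical copies that share reads, so the value of each is uncertain. These are locus levels and do not measure use of the exons.

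TRA2B-203, a protein-coding model that skips the added exon and the next coding exon, was singled out after its values were seen. UPF1/XRN1 had a signal of 90.0, beside 905 in the control, 692 in XRN1 and 1065 in SMG6/XRN1. The UPF1/XRN1 reads were 0.129 of XRN1 (0.080 to 0.198) and 0.084 of SMG6/XRN1 (0.053 to 0.128), with at most 2.64% of the locus in every library.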
